A study of Danio rerio with 4 samples.

Results

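Expression of the nuclear-encoded genes of the mitochondrial respiratory chain was compared between testes and ovaries of untreated adult zebrafish (Danio rerio). The genes were taken by symbol: every gene of the gonad count table whose lower-case symbol begins with nduf, sdha, sdhb, sdhc, sdhd, uqcr, cox4, cox5, cox6, cox7, cox8 or atp5, or is cyc1. This rule found 109 of the 32520 genes listed, and 105 of them had enough counts to be tested. They comprised 38 genes of complex I, 5 of complex II, 9 of complex III, 25 of complex IV, 20 of complex V and 12 assembly factors. The testis libraries (2) and the ovary libraries (2) each came from the gonads of 1 fish of the AB laboratory strain, a male for each testis and a female for each ovary. They had received neither exemestane, which blocks the estrogen-making enzyme aromatase and was the drug the wider study tested, nor its solvent DMSO, and served as null controls. Per the study's methods, each adult group had a tank of its own in which a perforated plate kept the sexes apart. The exact age of these fish was not given. The sample labels give rRNA depletion and a strand-marking library kit, whereas the study's methods give polyA selection for adult gonads, so which RNA was retained is uncertain. Gene copies were counted as separate genes, and several of them share a symbol, so those are given here with their Ensembl identifiers. How alike their sequences are was not examined.

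The respiratory chain sits in the inner mitochondrial membrane. Complexes I and II take electrons from NADH and succinate, complex III passes them to the small carrier cytochrome c, and complex IV, cytochrome c oxidase, hands them to oxygen. Complexes I, III and IV pump protons, and complex V, the ATP synthase, lets the protons back through a rotating ring of c subunits and makes ATP. Most subunits are encoded in the nucleus and a few in the mitochondrial genome, and several nuclear subunits have more than one gene copy, of which some are tissue-specific in mammals. Oocytes are known for very large stores of mitochondria, and sperm carry a compact set beside the flagellum.

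Library totals were 11554811 and 12382674 counts in testes, against 26137839 and 18085251 counts in ovaries, and levels are given as counts per 1000000 of the TMM-scaled library total (CPM). The oocyte and male germ cell marker lists matched the labels. All 8 oocyte markers were higher in ovaries, and all 7 male germ cell markers were higher in testes, with tekt1 and tssk6 at 0 in both ovaries. Summed oocyte markers were 57.5 and 41.7 CPM in testes, against 10005 and 6108 CPM in ovaries, and summed male germ cell markers were 2559 and 2534 CPM in testes, against 233 and 174 CPM in ovaries. Muscle markers summed to 184 and 209 CPM in testes, against 3.65 and 3.56 CPM in ovaries. Of the 5 muscle markers found, atp2a1 and actc1b were higher in testis, ckma did not pass, and ckmb and mb were too low to test. Skin markers differed between the fish of each tissue, at 1233 and 50.3 CPM in testes and 1265 and 144 CPM in ovaries. These sums held different genes. The gene epcam, called higher in ovary, had 13.9 and 0.192 CPM in testes, against 1245 and 92.0 CPM in ovaries. In testis replicate 1 the keratin genes krt4, krt5 and krt91 had 253, 495 and 471 CPM, against 10.7, 0.582 and 6.83 CPM in ovary replicate 1. Of these, krt4 was called higher in testis, while krt5 and krt91 did not pass. Of the 2 granulosa markers found, fshr was called higher in testis, at 56.8 and 35.4 CPM in testes, against 3.55 and 11.3 CPM in ovaries. The other, lhcgr, did not pass. Sertoli and Leydig cell markers summed to 2665 and 1727 CPM in testes, against 282 and 312 CPM in ovaries. Of these 7 genes 6 were higher in testis. The exception, cyp17a1, was called higher in ovary and held most of the ovary sum, at 233 and 274 CPM. Leukocyte markers summed to 169.6 and 90.5 CPM in testes, against 9.69 and 29.7 CPM in ovaries. Blood markers summed to 49.7 and 50.8 CPM in testes, against 3.07 and 7.66 CPM in ovaries. The part of these other cell types in the results was not tested. In bulk gonads, fewer cells of a type and less RNA per cell cannot be told apart.

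Of the 105 genes tested, 16 were higher in testis and 33 were higher in ovary (edgeR quasi-likelihood test, Benjamini-Hochberg adjusted p below 0.05 over 21815 genes), while 56 did not pass. Among all tested genes, 36.7% were called higher in testis and 28.5% higher in ovary, together 65.2%. The respiratory chain shares were 15.2% and 31.4%, so the share higher in testis lay below that of all genes and the share higher in ovary was near it. Fold changes, testis over ovary on the log2 scale, had a median of -0.44 for the respiratory chain genes and 0.45 for all tested genes, a difference of -0.89. With scaling by library total alone these medians were 0.32 and 1.19, so the sign of the respiratory chain median depended on the scaling, but the difference was still -0.87. The difference shrank to -0.14 when only genes with at least 10 counts in every library were kept, with medians of -0.069 and 0.068. Of the 16 testis calls, 7 had under 10 counts in at least 1 ovary library, so they passed the filter on low counts through the testes. With that minimum of 10 counts, 14 respiratory chain genes were higher in testis and 19 higher in ovary, beside 29.9% and 29.8% of all genes tested there.

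The libraries of the 2 tissues did not overlap for 84 of the 105 genes, 24 with both testes above and 60 with both ovaries above. Over all tested genes the libraries did not overlap for 84.7%, with 48.1% having both testes above and 36.6% both ovaries above. Summed over all respiratory chain genes, levels were 4792 and 4598 CPM in testes, against 8869 and 7345 CPM in ovaries, but with library totals alone the sums overlapped at 6321 and 5814 CPM in testes and 6409.6 and 6042 CPM in ovaries. Leaving out 1 library changed the number of calls: 10 genes were higher in testis without testis replicate 2, beside 32.1% of all genes tested there, and 9 without ovary replicate 2, beside 26.4%. Without ovary replicate 1, 21 of 105 were higher in ovary, beside 21.5% of all genes tested there. Of the 16 testis calls, 8 were called in all 4 leave-one-out fits, as were 19 of the 33 ovary calls. Scaling by library totals alone gave 28 genes higher in testis and 12 higher in ovary, beside 47.7% and 17.6% of all tested genes, kept all 16 testis calls and 12 of the 33 ovary calls, and changed the sign of 5 ovary calls. The 12 testis calls it added were atp5mea, atp5pd, cox7a2 ENSDARG00000110700, ndufa2, ndufa3, ndufa4, ndufb6, ndufb7, ndufc2, ndufs4, ndufv1 and uqcrq. With DESeq2 size factors 16 were higher in testis and 38 higher in ovary, beside 35.8% and 29.3% of all tested genes. Unless another setting is named, a gene passes or does not pass in the TMM-scaled edgeR fit.

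**Figure D1:**
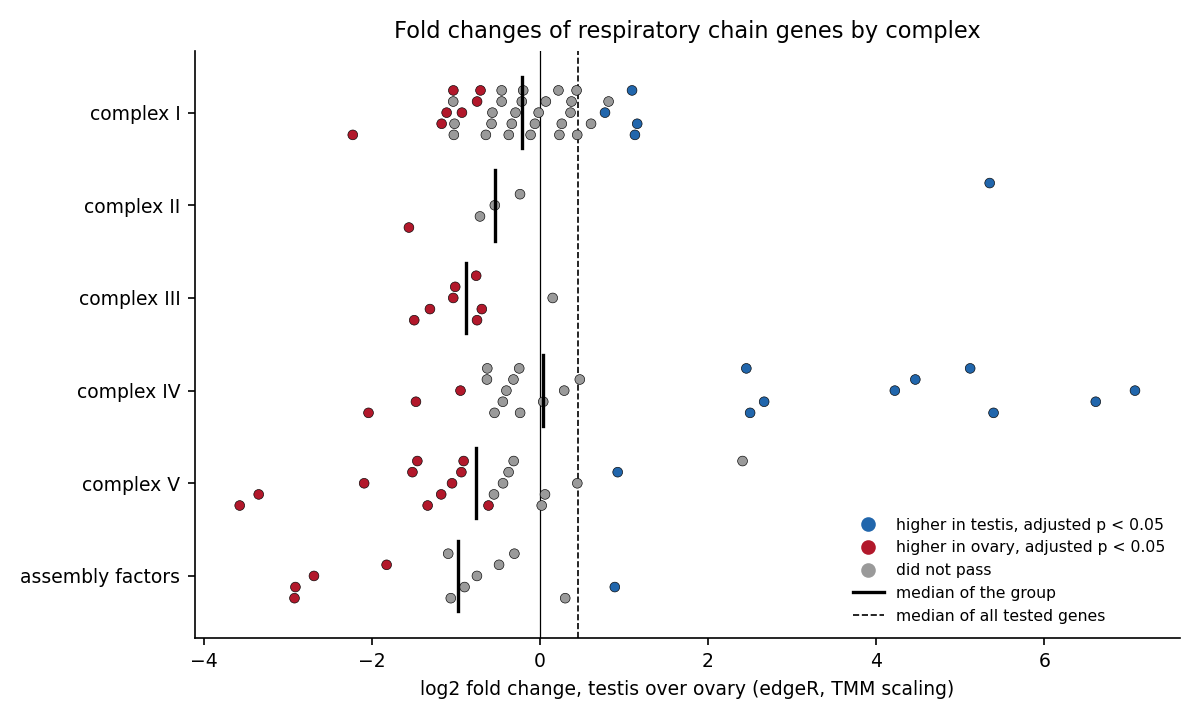
Log2 fold change, testis over ovary, of the 105 tested respiratory chain genes, 1 point per gene, by complex (rows) and call (color). Bars mark each group's median and the dashed line the median of all tested genes, 0.45. All 8 tested complex III genes lie left of the dashed line, and complex IV has 9 genes far to the right. Of these 9, 6 had under 10 counts in at least 1 ovary library and passed the filter on low counts through the testes. The 9 are 39.1% of the tested complex IV genes, near the 36.7% of all tested genes higher in testis. With scaling by library totals alone all points shift to the right by 0.70 to 0.83, and the medians of all respiratory chain genes, complex I and complex II turn positive.

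Most complex I genes did not pass. Of 37 tested genes, 4 were higher in testis, 7 were higher in ovary and 26 did not pass, with a median of -0.21 on the log2 scale. Of all tested genes, 36.7% were higher in testis and 28.5% higher in ovary. The balance turned with library totals alone, to 11 higher in testis and 1 in ovary, beside 47.7% and 17.6% of all tested genes. It also turned with at least 10 counts in every library, to 7 higher in testis and 3 in ovary. Of all genes tested there, 29.9% were higher in testis and 29.8% in ovary. With DESeq2 size factors 4 were higher in testis and 10 in ovary, beside 35.8% and 29.3% of all tested genes. The summed level was 1161 and 1117 CPM in testes, against 1358 and 1229 CPM in ovaries, but with library totals alone the order turned round, at 1532 and 1413 CPM in testes and 982 and 1011 CPM in ovaries. In the peripheral arm, which carries the flavin and the iron-sulfur clusters, 1 of 16 tested genes was higher in testis and 3 were higher in ovary. In the membrane arm, which pumps protons, 3 of 19 were higher in testis and 2 were higher in ovary. Without testis replicate 1 the median log2 fold change of complex I was -0.42, and without testis replicate 2 it was -0.043.

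The complex I genes higher in testis changed modestly. The accessory membrane arm gene ndufa8 (ENSDARG00000058041) had 60.2 and 60.2 CPM in testes, against 25.8 and 29.1 CPM in ovaries (log2 fold change 1.13 ± 0.22 (SE), adjusted p = 0.0056). Its testes lay above both ovaries, and it was the only complex I testis call that passed in all 4 leave-one-out fits. Of the other accessory membrane arm genes, ndufb4 had 36.5 and 39.9 CPM in testes, against 19.4 and 14.8 CPM in ovaries (log2 fold change 1.16, adjusted p = 0.011). The gene ndufb2 had 58.4 and 75.5 CPM in testes, against 36.1 and 26.5 CPM in ovaries (log2 fold change 1.10, adjusted p = 0.013), and as for ndufb4 the lower testis lay above the higher ovary. The core gene ndufs7, which holds the last iron-sulfur cluster of the electron path, had 85.6 and 92.3 CPM in testes, against 57.4 and 46.5 CPM in ovaries (log2 fold change 0.78 ± 0.22 (SE), adjusted p = 0.022). These 3 calls were lost without testis replicate 2 (adjusted p = 0.055, 0.06 and 0.073) and without ovary replicate 2 (adjusted p = 0.054, 0.066 and 0.12).

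The largest complex I change was in the other direction. The accessory gene ndufv3 (ENSDARG00000090389), whose product sits at the flavin-bearing tip, had 8.27 and 6.32 CPM in testes, against 33.6 and 34.7 CPM in ovaries (log2 fold change -2.23 ± 0.31 (SE), adjusted p = 0.0017). Both ovaries stood close together and at least 4 times above the testes, and the fold change ranged from -2.44 to -2.06 when each library was left out. The core iron-sulfur gene ndufs8 had 39.2 and 40.5 CPM in testes, against 85.5 and 86.4 CPM in ovaries (log2 fold change -1.11 ± 0.20 (SE), adjusted p = 0.0046), and its fold change was -0.36 with library totals alone (adjusted p = 0.16). The core gene ndufs3 had 19.6 and 24.4 CPM in testes, against 44.2 and 45.5 CPM in ovaries (log2 fold change -1.03 ± 0.25 (SE), adjusted p = 0.012), a call lost without testis replicate 1 (adjusted p = 0.054). The core gene ndufv1, which binds NADH and the flavin, had 136 and 161 CPM in testes and 138 and 109.9 CPM in ovaries and did not pass (log2 fold change 0.26, adjusted p = 0.35).

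Both genes for the mitochondrial acyl carrier protein, a complex I subunit that also serves fatty acid synthesis, were higher in ovary with TMM scaling. The gene ndufab1b had 25.9 and 34.1 CPM in testes, against 70.9 and 63.99 CPM in ovaries (log2 fold change -1.17, adjusted p = 0.0071). Its copy ndufab1 had 34.7 and 31.6 CPM in testes, against 56.4 and 51.8 CPM in ovaries (log2 fold change -0.71, adjusted p = 0.03), but with library totals alone its fold change was 0.045 and it was lost without either testis or without ovary replicate 1 (adjusted p = 0.066, 0.1 and 0.11). The remaining complex I calls were ndufa11 (-0.93 on the log2 scale) and ndufb5 (-0.75), membrane arm genes higher in ovary; ndufa11 was lost without testis replicate 2 (adjusted p = 0.053) or ovary replicate 1 (adjusted p = 0.051) and ndufb5 without testis replicate 2 (adjusted p = 0.18), ovary replicate 1 (adjusted p = 0.19) or ovary replicate 2 (adjusted p = 0.073). The sign of ndufb5 turned with library totals alone (0.011).

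Complex II, succinate dehydrogenase, had opposite changes in the 2 gene copies of one membrane anchor. The catalytic flavoprotein gene sdha had 79.98 and 76.6 CPM in testes, against 134 and 93.2 CPM in ovaries. The iron-sulfur gene sdhb had 22.2 and 32.6 CPM in testes, against 42.99 and 46.8 CPM in ovaries. The membrane anchor gene sdhc had 57.8 and 52.3 CPM in testes, against 70.5 and 59.2 CPM in ovaries. In all 3 both ovaries lay above both testes, but none passed (log2 fold change -0.54, -0.71 and -0.24, adjusted p = 0.1, 0.06 and 0.37), and all 3 turned positive with library totals alone. However, sdhb was called higher in ovary with DESeq2 size factors and with the DESeq2 Wald test. Both genes labelled sdhd, the other membrane anchor, passed in opposite directions.

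The copy sdhd ENSDARG00000030139 had 24.8 and 29.8 CPM in testes, against 84.5 and 76.4 CPM in ovaries (log2 fold change -1.56 ± 0.23 (SE), adjusted p = 0.002). Both ovaries were above both testes, and the call held in every leave-one-out fit and with library totals alone. The copy sdhd ENSDARG00000055712 had 122 and 289 counts in testes, against 9 and 2 counts in ovaries, that is 8.01 and 18.5 CPM in testes and 0.476 and 0.134 CPM in ovaries (log2 fold change 5.35 ± 0.82 (SE), adjusted p = 0.0025). Testis replicate 2 was the highest library and both ovaries were near 0, and without testis replicate 2, ovary replicate 1 or ovary replicate 2 the log2 fold change was 4.59, 6.53 or 4.67. Its share of the counts of both sdhd copies was 24.4% (95% CI 20.8 to 28.4) and 38.2% (95% CI 34.8 to 41.7) in testes, against 0.561% (95% CI 0.295 to 1.06) and 0.176% (95% CI 0.0482 to 0.639) in ovaries. The 2 copies together gave 32.8 and 48.3 CPM in testes, against 84.97 and 76.5 CPM in ovaries.

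Complex III, the cytochrome bc1 complex, had nearly every gene higher in ovary with TMM scaling. Of 8 tested genes 7 were higher in ovary, 0 were higher in testis (0 also at an unadjusted p below 0.05 and by DESeq2), and the median log2 fold change was -0.88. Of all tested genes, 28.5% were higher in ovary and 36.7% higher in testis. Summed levels were 459 and 494 CPM in testes, against 927 and 854 CPM in ovaries, and both ovaries stayed above both testes with library totals alone, at 605 and 625 CPM in testes and 669.7 and 703 CPM in ovaries. Scaled by library totals alone, the median was -0.14 and 2 of the 7 calls were kept, beside 17.6% of all tested genes higher in ovary. With that scaling 1 gene, uqcrq, was higher in testis (log2 fold change 0.90, adjusted p = 0.04), beside 47.7% of all tested genes. With at least 10 counts in every library, 3 were higher in ovary, beside 29.8% of all genes tested there. Without testis replicate 1 the median log2 fold change of complex III was -0.72, and without testis replicate 2 it was -1.02.

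The 2 complex III genes that kept their call in every setting tested were uqcrfs1 and uqcr10. The Rieske iron-sulfur protein gene uqcrfs1 (ENSDARG00000007745) had 81.4 and 75.8 CPM in testes, against 201 and 188 CPM in ovaries (log2 fold change -1.31 ± 0.21 (SE), adjusted p = 0.0029). The small subunit gene uqcr10 (ENSDARG00000104517) had 31.6 and 33.3 CPM in testes, against 90.3 and 92.8 CPM in ovaries (log2 fold change -1.49 ± 0.21 (SE), adjusted p = 0.0017). In both genes the libraries of each tissue stood close together and far from those of the other tissue. The hinge protein gene uqcrh, whose product helps cytochrome c bind, had 38.8 and 43.05 CPM in testes, against 90.3 and 76.8 CPM in ovaries (log2 fold change -1.03 ± 0.22 (SE), adjusted p = 0.0075).

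The remaining complex III calls were smaller. The cytochrome c1 gene cyc1 had 72.05 and 87.7 CPM in testes, against 142 and 128 CPM in ovaries (log2 fold change -0.76, adjusted p = 0.023). The core protein gene uqcrc1 had 78.7 and 92.1 CPM in testes, against 166 and 121 CPM in ovaries (log2 fold change -0.75, adjusted p = 0.037), and the 2 copies of the second core protein gene, uqcrc2 and uqcrc2a, had log2 fold changes of -0.69 and -1.01 (adjusted p = 0.028 and 0.018). The call of cyc1 was lost without testis replicate 1 (adjusted p = 0.089) or ovary replicate 1 (adjusted p = 0.081), and that of uqcrc1 without testis replicate 1 (adjusted p = 0.12), testis replicate 2 (adjusted p = 0.052) or ovary replicate 1 (adjusted p = 0.15). The call of uqcrc2 was lost without testis replicate 1 (adjusted p = 0.098) or ovary replicate 1 (adjusted p = 0.096), and that of uqcrc2a without testis replicate 1 (adjusted p = 0.067) or ovary replicate 2 (adjusted p = 0.054). With library totals alone, the fold changes of uqcrc1 and uqcrc2 turned to 0.010 and 0.058. The small subunit gene uqcrq was the exception, with 50.7 and 33.9 CPM in testes and 36.7 and 39.4 CPM in ovaries in overlapping libraries (log2 fold change 0.15, adjusted p = 0.64).

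Complex IV had the largest fold changes. Of 23 tested genes 9 were higher in testis, 3 were higher in ovary and 11 did not pass, around a median of 0.040 on the log2 scale. The share higher in testis, 39.1%, was near the 36.7% of all tested genes. The share higher in ovary, 13.0%, lay below their 28.5%. Without testis replicate 1 the log2 fold changes of cox5b ENSDARG00000015978 and cox6a1 ENSDARG00000022438 moved from -0.63 each to -0.89 and -1.09. By library totals alone 11 were higher in testis and 1 was higher in ovary, beside 47.7% and 17.6% of all tested genes. With at least 10 counts in every library 4 were higher in testis and 2 in ovary, beside 29.9% and 29.8% of all genes tested there. All 9 testis calls, from 2.46 to 7.08 on the log2 scale, belonged to subunits with a further gene copy, and 6 of the 9 had under 10 counts in at least 1 ovary library. The single-copy gene cox7b, for a small structural subunit, had 94.03 and 83.9 CPM in testes and 107 and 102 CPM in ovaries and did not pass (adjusted p = 0.34). Likewise cox7c, another small subunit, had 87.2 and 75.6 CPM in testes and 106 and 108 CPM in ovaries (adjusted p = 0.13). Summed levels of complex IV were 1081 and 899.8 CPM in testes, against 1157 and 1091 CPM in ovaries, with the order turned round with library totals alone, at 1425 and 1138 CPM in testes and 836 and 897 CPM in ovaries.

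The largest fold change of the set was that of one cox5b copy. The copy cox5b ENSDARG00000068738, which encodes a zinc-binding subunit on the matrix side, had 767 and 627 counts in testes, against 6 and 5 counts in ovaries, that is 50.3 and 40.05 CPM in testes and 0.318 and 0.336 CPM in ovaries (log2 fold change 7.08 ± 0.38 (SE), adjusted p = 0.00013). Both testes were over 100 times above both ovaries, and the fold change was 6.90 to 7.22 in the leave-one-out fits. The copy cox5b ENSDARG00000113254 had 27 and 45 counts in testes, against 1 and 1 counts in ovaries, a ratio of 39.3 (95% counting interval 10.5 to 331) between the scaled sums, with adjusted p = 0.0017. The remaining copy, cox5b ENSDARG00000015978, had 61.7 and 44.5 CPM in testes and 87.8 and 75.95 CPM in ovaries and did not pass (log2 fold change -0.63, adjusted p = 0.065), its sign turned with library totals alone (0.13), and it was called higher in ovary without testis replicate 1 (adjusted p = 0.037).

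The cox5b copies shared their counts differently in the 2 tissues. The share of cox5b ENSDARG00000068738 was 44.2% (95% CI 41.9 to 46.6) and 45.8% (95% CI 43.2 to 48.5) in testes, against 0.360% (95% CI 0.165 to 0.784) and 0.440% (95% CI 0.188 to 1.03) in ovaries. The sum of the 3 copies overlapped between tissues, at 114 and 87.4 CPM in testes and 88.1 and 76.4 CPM in ovaries, although with library totals alone both testes lay above both ovaries. How far reads could be assigned to single copies was not tested, and shares of counts are not corrected for gene length.

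Both cox8 genes, for the smallest nuclear subunit, were higher in testis. The gene cox8b (ENSDARG00000097209) had 1393 and 760 counts in testes, against 21 and 33 counts in ovaries, that is 91.4 and 48.5 CPM in testes and 1.11 and 2.22 CPM in ovaries (log2 fold change 5.40 ± 0.52 (SE), adjusted p = 0.00048), and cox8a had 41.1 and 44.3 CPM in testes, against 5.35 and 10.2 CPM in ovaries (log2 fold change 2.46 ± 0.38 (SE), adjusted p = 0.0025). Together they gave 132 and 92.8 CPM in testes, against 6.46 and 12.4 CPM in ovaries, so the testes lay above the ovaries for the total as well. The share of cox8b in these counts was 68.99% (95% CI 66.9 to 70.97) and 52.3% (95% CI 49.7 to 54.9) in testes, against 17.2% (95% CI 11.5 to 24.9) and 17.8% (95% CI 12.99 to 23.99) in ovaries. In rodents Cox8b is the heart and muscle form. Of the 5 muscle markers found, atp2a1, a muscle calcium pump, was also higher in testis, with 2628 and 3176 counts in testes, against 10 and 14 counts in ovaries (log2 fold change 7.997, adjusted p = 0.00011). So was actc1b, an actin of heart and skeletal muscle, with 119 and 76 counts in testes, against 16 and 9 counts in ovaries (log2 fold change 3.10, adjusted p = 0.0075). The creatine kinase gene ckma had 34 and 15 counts in testes, against 32 and 19 counts in ovaries and did not pass (adjusted p = 0.91). Of the markers too low to test, ckmb had 24 and 1 counts in testes, against 10 and 11 counts in ovaries, and the myoglobin gene mb had 0 and 6 counts in testes, against 1 and 0 counts in ovaries. The part of muscle cells in the cox8b result was not tested.

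For several other complex IV subunits, a copy with few counts was higher in testis, while a copy with more counts did not pass. These copies with few counts passed the filter on low counts through the testes. Copies low in both tissues, such as ndufa4l2, were not tested, so this arrangement is not read as a result. The gene ndufa4b (ENSDARG00000056108), a copy of a subunit first assigned to complex I, had 98 and 108 counts in testes, against 0 and 2 counts in ovaries, a ratio of 113 (95% counting interval 30.8 to 936) between the scaled sums (adjusted p = 0.002). The copy ndufa4 had 119.9 and 91.8 CPM in testes and 98.3 and 108 CPM in ovaries and did not pass (adjusted p = 0.89, with a log2 fold change of 0.040 whose sign changed with the setting), although it was called higher in testis with library totals alone (log2 fold change 0.79, adjusted p = 0.034). The gene cox7a1 (ENSDARG00000069464), the heart and muscle form of its subunit in mammals, had 120 and 117 counts in testes, against 2 and 9 counts in ovaries (log2 fold change 4.47 ± 0.85 (SE), adjusted p = 0.0052), and its log2 fold change was 3.66 without ovary replicate 1 and 6.001 without ovary replicate 2. The copy cox7a2 ENSDARG00000053217 had 49.01 and 46.6 CPM in testes and 69.6 and 69.4 CPM in ovaries (adjusted p = 0.056). The copy cox7a2 ENSDARG00000110700 had 51.8 and 54.3 CPM in testes and 50.4 and 36.3 CPM in ovaries (adjusted p = 0.34), and neither cox7a2 copy passed. However, cox7a2 ENSDARG00000110700 was called higher in testis with library totals alone (log2 fold change 1.05, adjusted p = 0.0086) and with at least 10 counts in every library, and cox7a2 ENSDARG00000053217 was called higher in ovary with DESeq2 size factors and with the DESeq2 Wald test.

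The cox6a and cox6b genes had the same arrangement, with the same limit, as did 2 of the 3 cox4 genes. The copy cox6a1 ENSDARG00000054588 had 90 and 33 counts in testes, against 4 and 3 counts in ovaries (log2 fold change 4.22 ± 0.88 (SE), adjusted p = 0.0071), a call lost without ovary replicate 1 (adjusted p = 0.0505), with a log2 fold change of 3.29 without testis replicate 1, while cox6a1 ENSDARG00000022438 had 73.1 and 41.96 CPM in testes and 96.2 and 81.8 CPM in ovaries (adjusted p = 0.12, and 0.019 without testis replicate 1, where it was called higher in ovary). The gene cox6b1 had 3.54 and 4.60 CPM in testes, against 0.688 and 0.739 CPM in ovaries (log2 fold change 2.50 ± 0.63 (SE), adjusted p = 0.014), and cox6b2 had 113 and 123 CPM in testes and 138 and 142 CPM in ovaries. In mammals COX6B2 is the testis form, and here the gene with that symbol was present in both tissues and did not pass (log2 fold change -0.25, adjusted p = 0.32, and 0.50 with library totals alone). The gene cox4i1l had 2.23 and 5.68 CPM in testes, against 0.688 and 0.538 CPM in ovaries (log2 fold change 2.67 ± 0.76 (SE), adjusted p = 0.022), and without testis replicate 2 its log2 fold change was 1.82. The calls of cox6b1 and cox4i1l were lost without testis replicate 2, ovary replicate 1 or ovary replicate 2 (adjusted p from 0.055 to 0.10), and cox4i1, with 76.8 and 73.5 CPM in testes and 96.6 and 90.3 CPM in ovaries, did not pass. The third gene, cox4i2, was low in overlapping libraries, with 66 and 22 counts in testes, against 14 and 51 counts in ovaries, and did not pass either (adjusted p = 0.67).

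**Figure D2:**
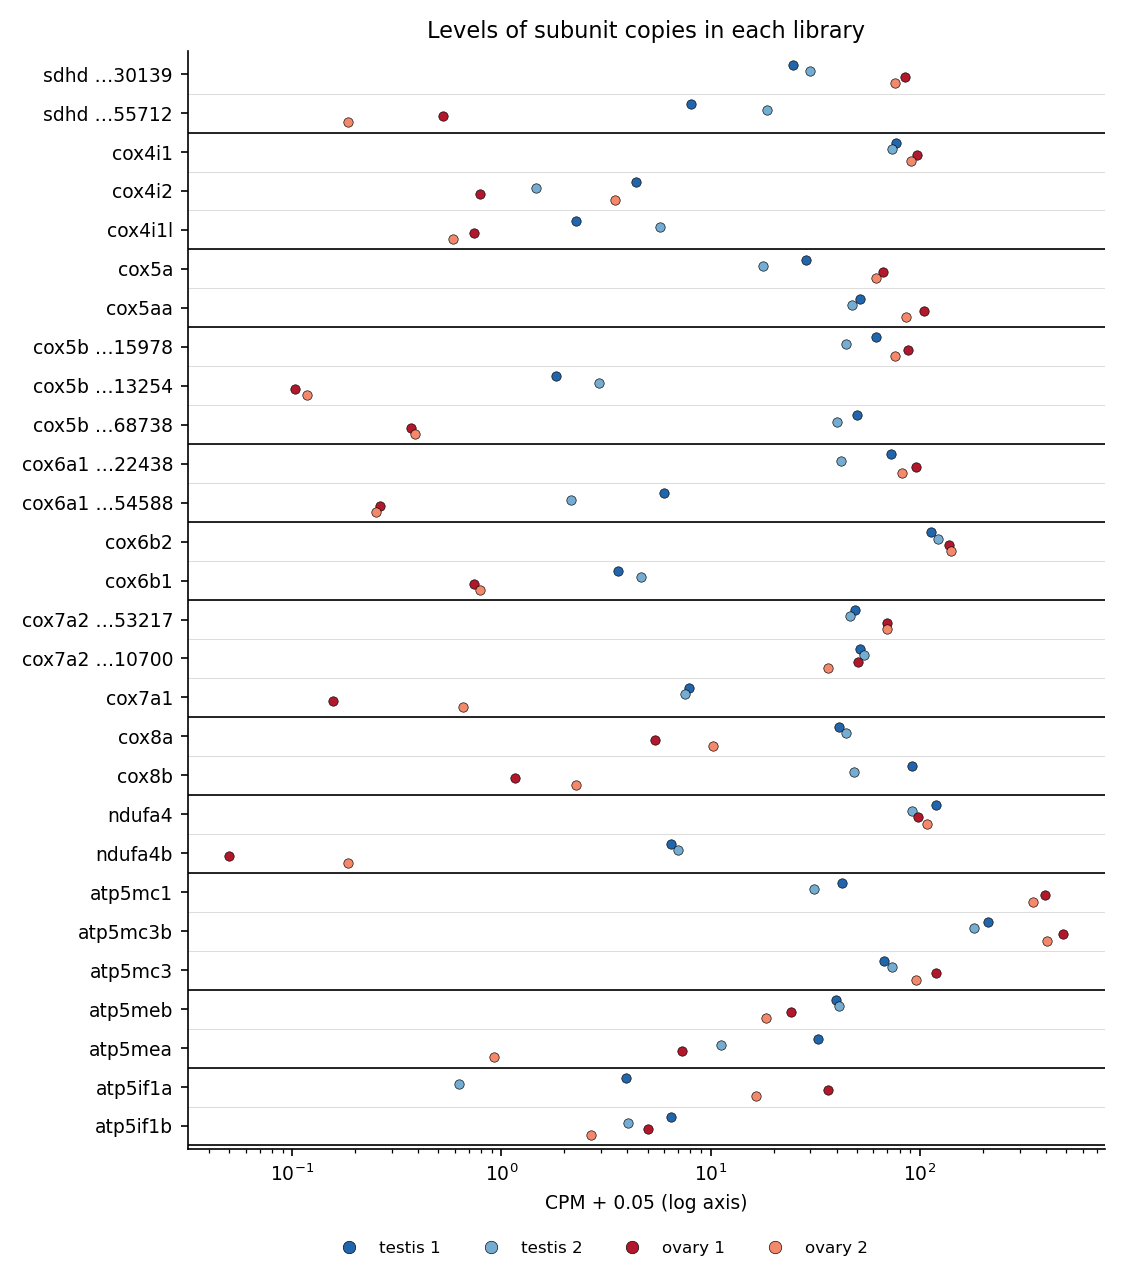
CPM (plus 0.05, log axis) of the tested genes of 12 subunits that have several copies, in the 2 testis libraries (blue) and the 2 ovary libraries (red), 1 point per library. Where copies share a symbol, the last 5 digits of the Ensembl identifier follow it. Points of both tissues lie close together for ndufa4 and the cox7a2 copies, whereas ovary points of cox5b ENSDARG00000068738, cox7a1, cox8b and ndufa4b lie far left of their testis points.

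The complex IV genes higher in ovary were cox7a2l, cox5a and cox5aa. The gene cox7a2l (ENSDARG00000054907), whose product joins complexes III and IV into supercomplexes in mammals, had 18.2 and 21.3 CPM in testes, against 75.1 and 87.2 CPM in ovaries (log2 fold change -2.04 ± 0.23 (SE), adjusted p = 0.00085). Both ovaries were at least 3 times above both testes, and the call held in every setting tested. Both copies of cox5a, a nuclear subunit next to the catalytic core, were higher in ovary, with 28.5 and 17.8 CPM in testes and 66.9 and 61.9 CPM in ovaries for cox5a (log2 fold change -1.47, adjusted p = 0.006) and 51.9 and 47.2 CPM in testes and 105 and 85.9 CPM in ovaries for cox5aa (log2 fold change -0.94, adjusted p = 0.011, lost without ovary replicate 1, adjusted p = 0.061). Neither cox5a copy passed with library totals alone (-0.72 and -0.19).

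Complex V, the ATP synthase, gave the largest summed difference. Of 20 genes, 11 were higher in ovary (55%), 1 was higher in testis (5%) and 8 did not pass. Of all tested genes, 28.5% were higher in ovary and 36.7% higher in testis. The median was -0.76 on the log2 scale, and -0.010 with library totals alone. The summed level was 1807 and 1787 CPM in testes, against 4938 and 3747 CPM in ovaries, a ratio of means of 2.42 in favour of the ovary. Both ovaries also lay above both testes with library totals alone, at 2384 and 2259 CPM in testes and 3569 and 3082 CPM in ovaries. The catalytic head and the c ring held 7 of the 11 ovary calls. Without ovary replicate 1 the log2 fold changes of atp5f1a and atp5f1b were -1.24 and -1.11. With at least 10 counts in every library there were 6 ovary calls in complex V, beside 2 testis calls. Of all genes tested with that minimum of 10 counts, 29.8% were higher in ovary and 29.9% higher in testis. By library totals alone 4 complex V genes were higher in ovary and 3 were higher in testis, beside 17.6% and 47.7% of all tested genes. The ovary calls kept were atp5f1a, atp5f1c, atp5if1a and atp5mc1.

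In the catalytic head, atp5f1b, the beta subunit that makes ATP, had 460.3 and 536 CPM in testes, against 1659.9 and 1077 CPM in ovaries (log2 fold change -1.46 ± 0.42 (SE), adjusted p = 0.022). Ovary replicate 1 was the highest library, and the call was lost without it or without either testis (adjusted p = 0.076, 0.085 and 0.055). The alpha subunit gene atp5f1a had 323 and 347 CPM in testes, against 1118 and 799 CPM in ovaries (log2 fold change -1.52 ± 0.35 (SE), adjusted p = 0.01). The central shaft gene atp5f1c (ENSDARG00000045514) had 56.3 and 48.7 CPM in testes, against 234 and 213 CPM in ovaries (log2 fold change -2.09 ± 0.22 (SE), adjusted p = 0.00068), with -1.34 on the log2 scale with library totals alone. The calls of atp5f1a and atp5f1c held in every setting tested. The delta subunit gene atp5f1d was higher in ovary (log2 fold change -0.93, adjusted p = 0.014, lost without ovary replicate 1 at adjusted p = 0.067), and the epsilon subunit gene atp5f1e did not pass (log2 fold change -0.31, adjusted p = 0.23). Neither atp5f1b nor atp5f1d was called with library totals alone (log2 fold change -0.69 and -0.18, adjusted p = 0.099 and 0.48).

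The c ring has 3 genes here, and in mammals such genes encode the same mature protein behind different import signals. The gene atp5mc1 (ENSDARG00000056008) had 42.3 and 31.1 CPM in testes, against 396 and 349 CPM in ovaries (log2 fold change -3.34 ± 0.28 (SE), adjusted p = 0.00032). Both ovaries were at least 8 times above both testes, and the fold change was -3.59 to -3.15 in the leave-one-out fits and -2.59 with library totals alone. The gene atp5mc3b had 213 and 182 CPM in testes, against 484 and 407 CPM in ovaries (log2 fold change -1.17 ± 0.26 (SE), adjusted p = 0.0093), and was not called with library totals alone (log2 fold change -0.42, adjusted p = 0.15). The gene atp5mc3 had 67.1 and 73.3 CPM in testes, against 119 and 95.5 CPM in ovaries (log2 fold change -0.61 ± 0.22 (SE), adjusted p = 0.049), a call lost without either testis or without ovary replicate 1 (adjusted p = 0.14, 0.082 and 0.18), and 0.14 with library totals alone.

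The share of atp5mc1 among the counts of the 3 c ring genes was 13.1% (95% CI 12.2 to 14.1) and 10.8% (95% CI 9.97 to 11.8) in testes, against 39.7% (95% CI 38.97 to 40.4) and 40.99% (95% CI 40.1 to 41.8) in ovaries. Their sum was 322 and 287 CPM in testes, against 999.5 and 851 CPM in ovaries, with both ovaries above both testes under either scaling. Relative to atp5mc3b, atp5mc1 was lower in testis by a factor of 4.54, and relative to atp5mc3 by a factor of 6.73. Here the copy ratio differed between tissues together with the total.

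**Figure D3:**
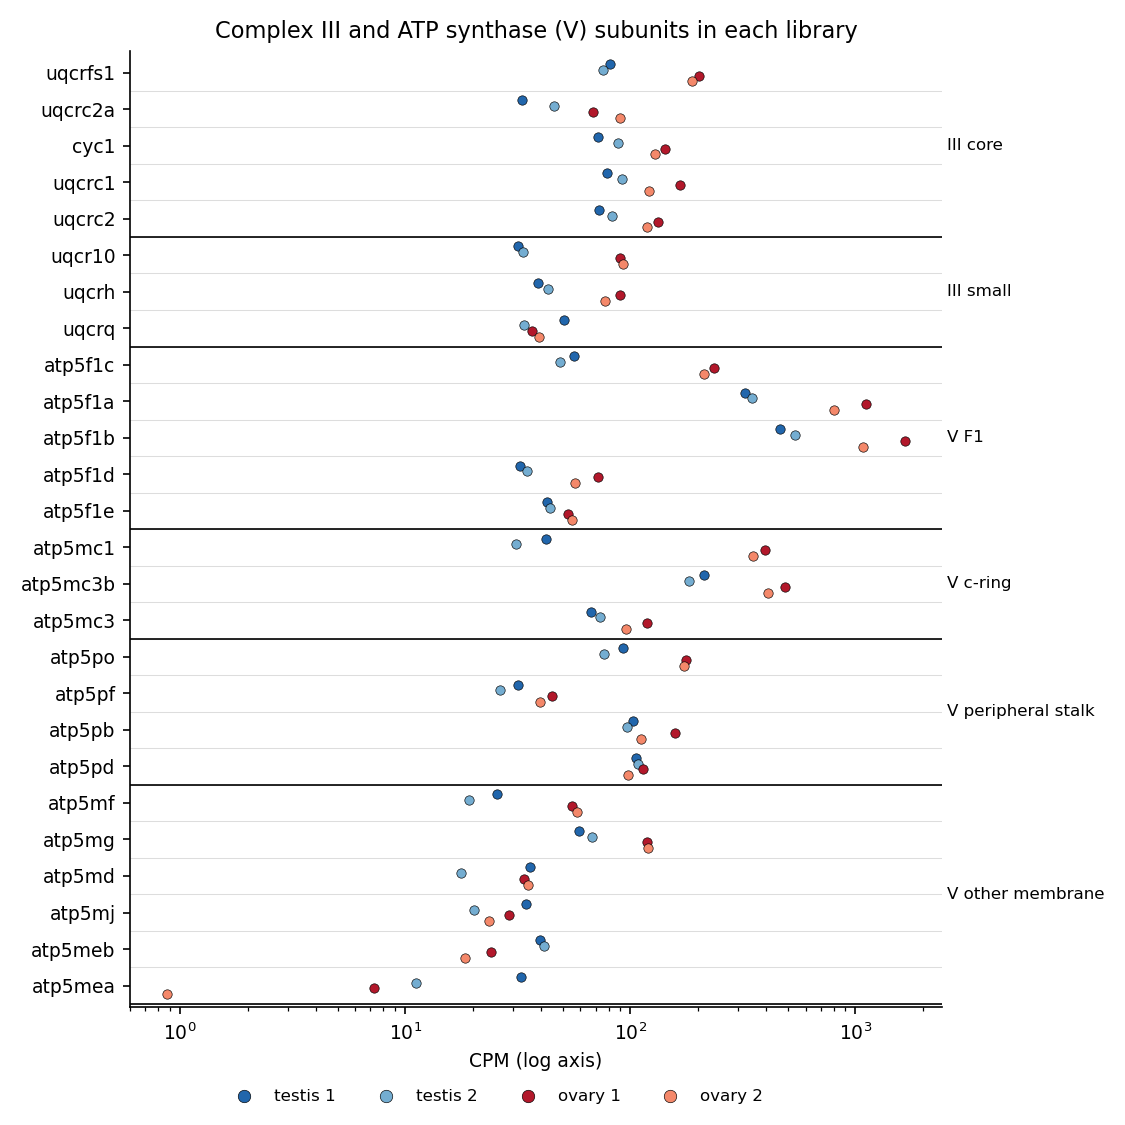
CPM (log axis) of the tested subunits of complex III and complex V without the ATPase inhibitors, in the 2 testis libraries (blue) and the 2 ovary libraries (red), 1 point per library. The 5 core genes of complex III, the 5 head genes and the 3 c ring genes of complex V have both ovaries to the right of both testes, most widely in atp5mc1, at 42.3 and 31.1 CPM in testes and 396 and 349 CPM in ovaries. With library totals alone, fold changes of 7 of these genes (uqcrc1, uqcrc2, atp5f1e, atp5mc3, atp5md, atp5pb and atp5pf) turn positive.

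Among the other ATP synthase genes, atp5po, which joins the head to the peripheral stalk, had 92.4 and 76.7 CPM in testes, against 176 and 173 CPM in ovaries (log2 fold change -1.04 ± 0.22 (SE), adjusted p = 0.0071). The other 3 stalk genes, atp5pf, atp5pb and atp5pd, did not pass (log2 fold change -0.55, -0.44 and 0.022). The membrane genes atp5mf and atp5mg, small subunits of the membrane part, were higher in ovary (log2 fold change -1.33, adjusted p = 0.0051, and log2 fold change -0.91, adjusted p = 0.0097). The calls of atp5po, atp5mf and atp5mg were lost with library totals alone (log2 fold change -0.30, -0.59 and -0.16, adjusted p = 0.26, 0.11 and 0.49), and atp5pd was then called higher in testis (0.77, adjusted p = 0.014). The membrane gene atp5meb was higher in testis, with 39.7 and 41.2 CPM in testes, against 24.1 and 18.4 CPM in ovaries (log2 fold change 0.93 ± 0.26 (SE), adjusted p = 0.021), a call lost without testis replicate 1 (adjusted p = 0.066), testis replicate 2 (adjusted p = 0.082) or ovary replicate 2 (adjusted p = 0.099). Its copy atp5mea spread widely, with 32.5 and 11.1 CPM in testes, against 7.25 and 0.874 CPM in ovaries, and did not pass (log2 fold change 2.41 ± 0.98 (SE), adjusted p = 0.07), but it was called higher in testis in 6 of the 11 other settings tested, library totals alone among them.

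The inhibitor genes atp5if1a and atp5if1b, whose products block ATP hydrolysis by the synthase, differed from each other. The gene atp5if1a (ENSDARG00000067975) had 59 and 9 counts in testes, against 689 and 244 counts in ovaries, that is 3.87 and 0.575 CPM in testes and 36.5 and 16.4 CPM in ovaries (log2 fold change -3.57 ± 0.89 (SE), adjusted p = 0.014). Both tissues were spread widely, and the log2 fold change was -5.52 without testis replicate 1, -2.79 without testis replicate 2 and -2.84 without ovary replicate 1, where the call was lost (adjusted p = 0.088). The gene atp5if1b had 6.43 and 3.96 CPM in testes and 4.98 and 2.62 CPM in ovaries in overlapping libraries (adjusted p = 0.54). The share of atp5if1a in the counts of both genes was 37.6% (95% CI 30.4 to 45.4) and 12.7% (95% CI 6.81 to 22.4) in testes, against 87.99% (95% CI 85.5 to 90.1) and 86.2% (95% CI 81.7 to 89.8) in ovaries.

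The assembly factors taken by the rule, proteins that help build complexes I and II without staying in them, were 8 for complex I and 4 for complex II. Of these 12, 4 were higher in ovary (33.3%, near the 28.5% of all tested genes). In the other direction 1 was higher in testis (8.33%, below the 36.7% of all tested genes). The gene ndufaf4 (ENSDARG00000077859), which acts on the quinone-binding module in mammals, had 1.97 and 1.72 CPM in testes, against 13.4 and 14.6 CPM in ovaries (log2 fold change -2.92 ± 0.47 (SE), adjusted p = 0.0028). The late-acting factor gene ndufaf2 had 3.28 and 3.002 CPM in testes, against 18.8 and 21.7 CPM in ovaries (log2 fold change -2.69 ± 0.39 (SE), adjusted p = 0.0019). The gene ndufaf8, a partner of ndufaf5 in mammals, had 2.03 and 1.34 CPM in testes, against 14.5 and 10.96 CPM in ovaries (log2 fold change -2.91 ± 0.52 (SE), adjusted p = 0.0043). In these 3 genes both ovaries were at least 5 times above both testes, and the calls held in every setting tested.

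The methyltransferase gene ndufaf7 had 4.003 and 5.30 CPM in testes, against 19.9 and 13.04 CPM in ovaries (log2 fold change -1.82 ± 0.44 (SE), adjusted p = 0.012), a call lost without testis replicate 1 or ovary replicate 1 (adjusted p = 0.059 and 0.067). The gene ndufaf1, needed for the membrane arm, went the other way, with 28.3 and 29.5 CPM in testes, against 13.4 and 17.7 CPM in ovaries (log2 fold change 0.89 ± 0.29 (SE), adjusted p = 0.035), and was lost in each of the 4 leave-one-out fits (adjusted p from 0.051 to 0.13). The complex II assembly genes sdhaf1, sdhaf2, sdhaf3 and sdhaf4 did not pass (log2 fold change from -1.09 to -0.30). Summed over the 12 genes, levels were 91.6 and 90.1 CPM in testes, against 156 and 148 CPM in ovaries, and overlapped with library totals alone.

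Copies of one subunit were then compared within each library, as a ratio of counts plus 2. This ratio does not depend on the scaling factors. For a copy with few counts it does depend on the added 2 and on library depth. The 36 genes with a further copy formed 15 groups and 23 pairs. In 19 pairs the log2 ratios of the 2 testes did not overlap those of the 2 ovaries, a share near the 84.7% of single genes whose libraries did not overlap, and the share among other gene pairs was not computed. In 14 pairs the mean ratio differed at least 4-fold. Many of these hold a copy with under 10 counts in an ovary library, kept through its testis counts. Pairs that share a copy are also not independent, so nothing is read from this number. With 2 libraries per tissue the exact permutation test cannot give a two-sided p below 0.333, which was the value of each of the 19 pairs. Of the 16 testis calls 11 were in such groups, as were 11 of the 33 ovary calls. Each was 32.4% of the 34 tested genes in such groups, beside 36.7% higher in testis and 28.5% higher in ovary among all tested genes. Of those 11 testis calls, 7 had under 10 counts in at least 1 ovary library and passed the filter on low counts through the testes, so nothing is read from their number.

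The largest ratio difference was between cox5b ENSDARG00000015978 and cox5b ENSDARG00000068738, at -7.30 on the log2 scale, testis minus ovary, with 2 counts added to each gene. The next were the sdhd copies, at 6.52 for ENSDARG00000055712 over ENSDARG00000030139, and ndufa4 over ndufa4b, at -5.30. The pair cox7a1 over cox7a2 ENSDARG00000053217 gave 4.84, and cox5b ENSDARG00000113254 over cox5b ENSDARG00000015978 gave 4.38. The inhibitor pair atp5if1a over atp5if1b gave -4.34, and cox6a1 ENSDARG00000022438 over cox6a1 ENSDARG00000054588 gave -4.17. Apart from the inhibitor pair, each of these pairs holds a copy with under 10 counts in both ovaries, kept through its testis counts. Their rank is therefore not read as a result. The copies of complex I and III subunits shifted little, with ndufa9 over ndufa9b at 0.44, ndufab1 over ndufab1b at 0.47 and uqcrc2 over uqcrc2a at 0.32. Male germ cell and oocyte markers moved with the tissue in every library, and differences between germ cell types cannot be told apart from differences between tissues here.

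**Figure D4:**
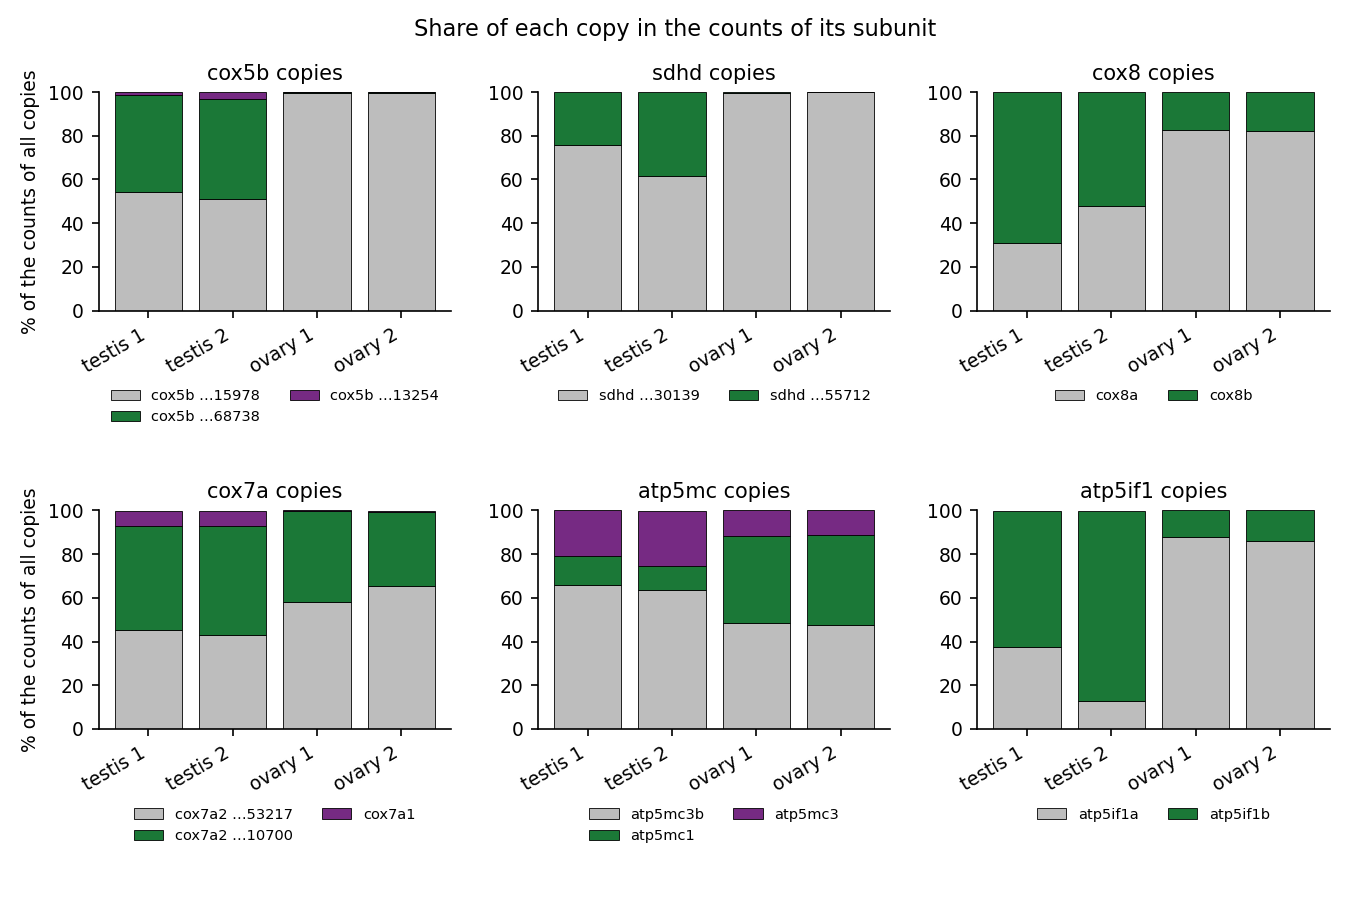
Share of each copy in the summed counts of its subunit (percent, not corrected for gene length), 1 bar per library, testes left of ovaries, for 6 subunits. Legends give the last 5 digits of the Ensembl identifier where copies share a symbol. The copy cox5b ENSDARG00000068738 holds 44.2% and 45.8% in testes, against 0.36% and 0.44% in ovaries, and atp5mc1 holds 13.1% and 10.8% in testes, against 39.7% and 41.0% in ovaries.

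The mitochondrially encoded subunits of the same complexes were set beside the nuclear ones. Of the 13 genes 12 were tested by edgeR. It called 5 higher in testis and 0 higher in ovary, with a median of 1.39 on the log2 scale. At an unadjusted p below 0.05, and by DESeq2, 0 were higher in ovary as well. The edgeR share higher in testis, 41.7%, was near the 36.7% of all tested genes, of which 28.5% were higher in ovary. By DESeq2 9 of 13 were higher in testis, a larger share than its 7460 of 29285 genes over all. Of those 29285 genes, 5110 were given no adjusted p by DESeq2 and could not be called. The cytochrome c oxidase gene mt-co2 had 1435 and 542 CPM in testes, against 166 and 401 CPM in ovaries (log2 fold change 1.80 ± 0.63 (SE), adjusted p = 0.044), and the ATP synthase gene mt-atp6 had 227 and 35.3 CPM in testes, against 21.3 and 34.7 CPM in ovaries (log2 fold change 2.23 ± 0.80 (SE), adjusted p = 0.048). Testis replicate 1 was far above the other libraries in both genes, and in mt-atp6 testis replicate 2 was close to ovary replicate 2. The leave-one-out range of the log2 fold change was 0.92 to 2.50 for mt-co2 and 0.32 to 3.01 for mt-atp6. The other calls were mt-nd1, mt-nd4 and mt-nd5, complex I subunits (1.39, 1.18 and 1.08 on the log2 scale). Their leave-one-out ranges were 0.57 to 1.90, 0.64 to 1.55 and 0.68 to 1.41. Each of the 5 calls was lost when certain single libraries were left out.

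The mitochondrial fold changes depended on single libraries. Their median log2 fold change was 0.66 and 1.80 without testis replicate 1 or 2, and 1.06 and 1.83 without ovary replicate 1 or 2. Without testis replicate 1 the fold changes of mt-nd2 and mt-nd4l turned negative (-0.21 and -0.66). With library totals alone 10 were higher in testis, beside 47.7% of all tested genes. The sum of the 13 genes was 9854 and 5882 CPM in testes, against 1906 and 4107 CPM in ovaries. The log2 ratio of mitochondrial to nuclear subunits was 1.07 and 0.38 in testes, against -2.19 and -0.81 in ovaries, a difference of 2.23 (exact permutation test, two-sided p = 0.333, the smallest possible). By complex the difference was 1.35 for I, 2.14 for III, 1.71 for IV and 2.98 for V. In complex V the log2 ratios were -2.99 and -5.66 in testes, against -7.85 and -6.75 in ovaries, and testis replicate 1 stood apart. With each library left out in turn, the difference ranged from 1.53 to 2.92 for all subunits, 0.84 to 1.87 for I, 1.41 to 2.88 for III, 1.09 to 2.33 for IV and 1.64 to 4.31 for V. The lowest values were without testis replicate 1 for V and without ovary replicate 1 for all subunits and the other complexes. The level of mitochondrial RNA in a library depends on how RNA was selected. For all 4 libraries the labels give rRNA depletion, whereas the study's methods give polyA selection for adult gonads. The part of RNA selection in this difference was not tested.

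**Figure D5:**
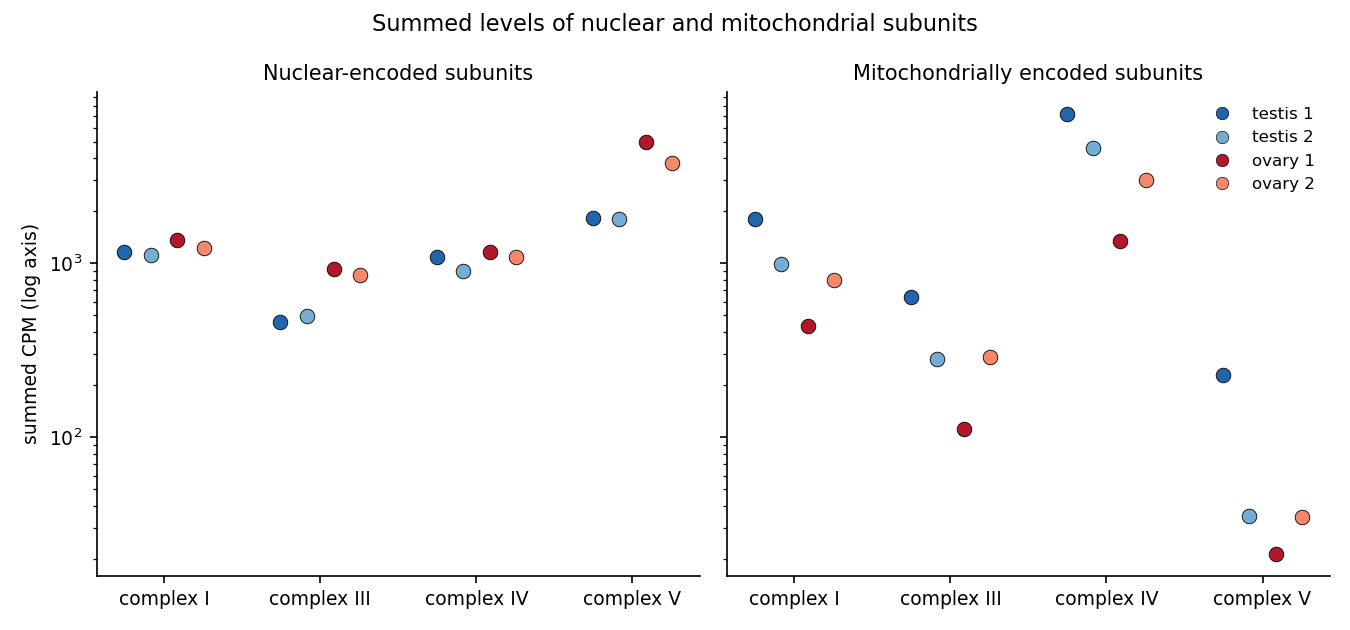
Summed CPM (log axis) of nuclear-encoded subunits (left) and mitochondrially encoded subunits (right) of complexes I, III, IV and V, 1 point per library, testes (blue) left of ovaries (red). Nuclear complex V genes sum to 1807 and 1787 CPM in testes and 4938 and 3747 CPM in ovaries, whereas the mitochondrial sums are highest in testis replicate 1 and lowest in ovary replicate 1 for each of the 4 complexes. Nuclear sums of complexes I and IV are higher in both testes with library totals alone.

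Other nuclear genes of the mitochondrion were described from lists. The cytochrome c gene cycsb, whose product carries electrons from complex III to complex IV, had 47.96 and 73.4 CPM in testes, against 187 and 263 CPM in ovaries (log2 fold change -1.89 ± 0.31 (SE), adjusted p = 0.0031). Of 38 tested assembly factors outside the symbol rule, 25 were higher in ovary and 2 were higher in testis, with a median of -1.42 on the log2 scale. These shares were 65.8% and 5.26%, beside 28.5% and 36.7% of all tested genes. With library totals alone, 10 were higher in ovary and 2 were higher in testis, beside 17.6% and 47.7% of all tested genes, and the median was -0.67. The gene tmem70 (ENSDARG00000078773), which helps form the c ring, had 4.66 and 3.77 CPM in testes, against 74.3 and 73.7 CPM in ovaries (log2 fold change -4.13 ± 0.27 (SE), adjusted p = 0.00018). The copper chaperone gene cox17 of complex IV had 2.03 and 4.41 CPM in testes, against 39.1 and 54.2 CPM in ovaries (log2 fold change -3.85 ± 0.46 (SE), adjusted p = 0.001). Both had ovaries over 8 times above testes. The factors higher in testis were nubpl (log2 fold change 1.31, adjusted p = 0.017), an iron-sulfur protein for complex I, lost without testis replicate 2 (adjusted p = 0.12) or ovary replicate 2 (adjusted p = 0.066), and cox10 (log2 fold change 0.89, adjusted p = 0.03), an enzyme of heme A synthesis, lost without testis replicate 1 (adjusted p = 0.073), testis replicate 2 (adjusted p = 0.13) or ovary replicate 2 (adjusted p = 0.13).

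Of 16 tested genes for mitochondrial import, channels and chaperones, 10 were higher in ovary and 1 was higher in testis, beside 28.5% and 36.7% of all tested genes. Without ovary replicate 1 the median log2 fold change of this list was -0.86. By library totals alone 4 were higher in ovary and 3 were higher in testis, beside 17.6% and 47.7% of all tested genes. The chaperone gene hspd1 had 72.3 and 81.9 CPM in testes, against 631 and 491 CPM in ovaries (log2 fold change -2.86 ± 0.29 (SE), adjusted p = 0.00055). The chaperone gene hspa9 had 146 and 158 CPM in testes, against 713 and 635 CPM in ovaries (log2 fold change -2.15 ± 0.28 (SE), adjusted p = 0.0014). The testis call was slc25a6, an ADP/ATP carrier (log2 fold change 2.07, adjusted p = 0.027), lost without testis replicate 1 (adjusted p = 0.078), testis replicate 2 (adjusted p = 0.078), ovary replicate 1 (adjusted p = 0.11) or ovary replicate 2 (adjusted p = 0.067). Of 16 tested genes of the tricarboxylic acid cycle and pyruvate dehydrogenase, 6 were higher in ovary (37.5%) and 1 was higher in testis (6.25%), beside the same 28.5% and 36.7%. Among those higher in ovary was mdh2, malate dehydrogenase (log2 fold change -2.30, adjusted p = 0.0011). The single one higher in testis was pdha1b, a pyruvate dehydrogenase copy with 20 and 34 counts in testes, against 1 and 0 counts in ovaries (adjusted p = 0.0029), which passed the filter on low counts through the testes. By library totals alone 6 genes of this list were higher in testis and 4 were higher in ovary, beside 47.7% and 17.6% of all tested genes. Medians of these lists with library totals alone were -0.41 and 0.31, against -1.16 and -0.45 with TMM.

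Of 17 tested genes of mitochondrial DNA upkeep, transcription and biogenesis, 3 were higher in ovary and 2 were higher in testis, and 12 did not pass. These shares, 17.6% and 11.8%, lay below the 28.5% and 36.7% of all tested genes. The median of -0.63 turned to 0.13 with library totals alone. With that scaling 4 were higher in testis and 2 were higher in ovary, beside 47.7% and 17.6% of all tested genes. Without ovary replicate 2 the median was -0.41. The DNA helicase gene twnk had 18.5 and 19.5 CPM in testes, against 118 and 106 CPM in ovaries (log2 fold change -2.56 ± 0.22 (SE), adjusted p = 0.00035), and the mitochondrial RNA polymerase gene polrmt had 39.6 and 37.3 CPM in testes, against 103 and 91.9 CPM in ovaries (log2 fold change -1.34 ± 0.21 (SE), adjusted p = 0.0026). The DNA polymerase gene polg was higher in testis (log2 fold change 1.08, adjusted p = 0.013), lost without ovary replicate 2 (adjusted p = 0.063). The coactivator gene ppargc1a had 10.2 and 3.51 CPM in testes, against 0.688 and 1.28 CPM in ovaries (log2 fold change 2.80 ± 0.78 (SE), adjusted p = 0.021), with a leave-one-out range of 1.85 to 3.37, and was lost without testis replicate 1 (adjusted p = 0.096), ovary replicate 1 (adjusted p = 0.1) or ovary replicate 2 (adjusted p = 0.055). The gene tfam, which packages mitochondrial DNA, had 15.1 and 19.3 CPM in testes and 12.1 and 18.8 CPM in ovaries and did not pass (adjusted p = 0.72).

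Of the 109 genes, 4 were too low to test. The core complex I gene ndufs1 had 0 and 1 counts in testes, against 0 and 0 counts in ovaries, and the complex III gene uqcrb had 2 and 3 counts in testes, against 2 and 6 counts in ovaries. The genes ndufa4l2 and ndufa4l2b, further copies of ndufa4, had 6 and 1, and 0 and 0 counts in testes, against 0 and 2, and 0 and 1 counts in ovaries. No fold change was computed for these 4 genes.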

How the data were processed

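Gene counts were deposited as whole numbers for 32520 Ensembl genes in 4 libraries; per the labels and the study's methods, the authors aligned reads with HISAT2 2.0.5 to GRCz11, handled alignments with SAMtools 1.5, removed duplicates and counted reads per gene on the reverse strand with HTSeq 0.9.1, after FastQC 0.11.8. Symbols were matched for 29201 genes. The counts were used as deposited, and total depth was 11554811 and 12382674 counts in testes, against 26137839 and 18085251 in ovaries. Genes passing filterByExpr (21815) were fitted with edgeR 4.0.16 (R 4.3.3), TMM scaling and the quasi-likelihood test, with Benjamini-Hochberg adjustment over all of them and a threshold of 0.05. SE is the log2 fold change divided by the square root of F. The biological coefficient of variation was 0.384. Duplicate removal caps counts of highly expressed short genes. The fish are separate animals, but with 2 per tissue the p-values rest on few samples. Copy ratios used counts plus 2 and exact two-sided permutation tests. Shares have 95% Wilson intervals, and ratios of genes with 1 to 3 counts exact intervals, covering counting error only. Named genes were the copies of a subunit, up to 3 called genes per complex and direction with the largest changes, the gene with the highest level in each complex, all complex II genes, genes at 3 counts or fewer, mitochondrially encoded genes and up to 4 genes per other list; other genes named, such as ndufs8, ndufs3, cyc1, tfam and the atp5mea and atp5meb pair, were chosen after their values were seen. Members and lists were chosen with earlier results of these data known. Alternatives were DESeq2 1.42.0 size factors and its Wald test, library totals alone, other count filters, a replicate block, leaving out each library, 0.5 added counts in copy ratios and, chosen after seeing the data, thinning all libraries to the depth of the shallowest. The fits were also run on simulated data with 200 changed genes and 1 common dispersion. Far fewer genes change there than were called here, so that run does not check the scaling. Sequences and coordinates were not used here.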

Additional observations from a re-analysis of the deposited data

How the results depend on the processing

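With 2 libraries per tissue, leave-one-out fits assume that the lone library varies like the other tissue. They gave 9 to 14 respiratory chain genes higher in testis and 21 to 34 higher in ovary. Medians of log2 fold change ranged in them from -0.42 to -0.043 for complex I, -1.02 to -0.72 for complex III and -1.22 to -0.89 for assembly factors. The sign changed in at least 1 of them for 17 of the 105 genes, of which 0 were called, among them uqcrq (-0.18 to 0.40), atp5pd (-0.17 to 0.15), atp5if1b (-0.014 to 1.003), cox4i2 (-0.53 to 1.87), cox7a2 ENSDARG00000110700 (-0.014 to 0.56) and ndufa4 (-0.17 to 0.21), and likewise for the mitochondrial genes mt-nd2 (-0.21 to 2.69) and mt-nd4l (-0.66 to 2.48).

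With library totals alone, 28 genes were higher in testis and 12 in ovary (all genes 10412 and 3833), and medians were 0.32 for all respiratory chain genes, 0.54 for complex I, 0.23 for II, -0.14 for III, -0.010 for V and -0.22 for assembly factors. Signs changed for 35 of the 105 genes, among them ndufab1 (0.045), atp5mc3 (0.14), uqcrc2 (0.058), cox7a2 ENSDARG00000053217 (0.21), sdha (0.23), cox6b2 (0.50), sdhb (0.023), cox6a1 ENSDARG00000022438 (0.13), cox5b ENSDARG00000015978 (0.13), sdhc (0.52), ndufa9 (0.19) and cox4i1 (0.44). Keeping only genes with at least 10 counts in every library (15277 genes) gave 19 higher in ovary, 4566 genes higher in testis over all genes and medians of -0.069 for all, 0.21 for complex I, -0.47 for III, -0.20 for V and -0.56 for assembly factors, with cox4i1 at 0.10, cox6b2 at 0.17 and sdhc at 0.18; this filter removes 7 of the 16 testis calls, genes with under 10 counts in at least 1 library. The sign of ndufa4 also changed with DESeq2 size factors (-0.032), the DESeq2 Wald test (-0.087) and no filter (-0.014). With 0.5 in place of 2 counts added, the copy differences were 5.32 for cox5b ENSDARG00000113254 over ENSDARG00000015978, -7.62 for ENSDARG00000015978 over ENSDARG00000068738 and -6.62 for ndufa4 over ndufa4b.

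Deviations by replicate number in testes and ovaries had a correlation of -0.033 over genes. This single value cannot exclude a shared effect of replicate number. A replicate block gave 16 genes higher in testis and 26 in ovary (all genes 7191 and 5610). The DESeq2 Wald test gave 14 and 39 (all genes 7460 and 6635 of 29285, of which 5110 had no adjusted p). Thinning to the shallowest library gave 16 and 29 (all genes 7735 and 5813 of 21238).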
